A study of Mus musculus with 8 samples.

Results

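The neuromuscular junction genes described here are 10 genes of the postsynaptic side of the synapse between motor nerve and muscle fiber: Chrna1, Chrnb1, Chrnd, Chrne, Chrng, Lrp4, Musk, Dok7, Rapsn and Ache. They were chosen by gene symbol among the 24054 genes of the deposited table, and all 10 have a row in it. RNA was taken from the soleus (SOL), a mostly slow postural muscle, of 4 MI4KO and 4 flox mice, with 1 library per mouse. All 8 mice were male C57BL/6 animals carrying floxed alleles of Irf4, the gene of the transcription factor interferon regulatory factor 4. Their labels record a high-fat diet, and the age of the sequenced mice is not given in the sources used here. Flox mice had no Cre and served as controls. MI4KO mice also carried Myl1-Cre, which acts in skeletal muscle, so that vessel, nerve, immune and other cells within the muscle keep Irf4. Mice of each group are numbered 1 to 4 in the order of their labels.

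At this synapse the nerve releases acetylcholine onto a receptor channel of the fiber membrane. Agrin binds the receptor LRP4, LRP4 activates the kinase MuSK, and MuSK with its adaptor DOK7 directs the scaffold protein rapsyn to gather the receptors under the nerve ending. Nuclei beneath the synapse transcribe most of these genes more strongly than the other nuclei of the fiber, and loss of the nerve switches several of them on along the whole fiber. A bulk library of the whole muscle mixes both kinds of nuclei with all other cells.

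Promoter sequence was shown for the members whose start carries the motifs that the textbook account of synaptic transcription turns on: CAGCTG, the E box bound by myogenic factors such as MyoD and myogenin, and CCGGAA, the core of the N box through which ETS factors act in synaptic nuclei. Capitals mark these motifs in the 200 bases before the RefSeq start site (GRCm38.p6), written 5′ to 3′ on the strand of the gene. The windows are chr2:73580339-73580538 on the minus strand for Chrna1, chr1:87205611-87205810 on the plus strand for Chrng, chr11:70619195-70619394 on the minus strand for Chrne and chr4:58285762-58285961 on the plus strand for Musk.
Chrna1: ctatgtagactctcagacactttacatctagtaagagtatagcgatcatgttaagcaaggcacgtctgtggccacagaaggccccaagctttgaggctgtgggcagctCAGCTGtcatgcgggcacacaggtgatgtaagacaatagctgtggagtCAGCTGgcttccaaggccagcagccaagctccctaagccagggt
Chrng: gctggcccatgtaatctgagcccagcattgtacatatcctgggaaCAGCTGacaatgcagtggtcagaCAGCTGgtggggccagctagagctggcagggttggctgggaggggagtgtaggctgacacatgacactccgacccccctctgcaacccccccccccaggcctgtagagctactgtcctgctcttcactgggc
Chrne: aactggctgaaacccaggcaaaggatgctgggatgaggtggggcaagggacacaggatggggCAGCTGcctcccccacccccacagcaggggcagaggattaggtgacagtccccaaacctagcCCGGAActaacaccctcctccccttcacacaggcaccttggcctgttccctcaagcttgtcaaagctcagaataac
Musk: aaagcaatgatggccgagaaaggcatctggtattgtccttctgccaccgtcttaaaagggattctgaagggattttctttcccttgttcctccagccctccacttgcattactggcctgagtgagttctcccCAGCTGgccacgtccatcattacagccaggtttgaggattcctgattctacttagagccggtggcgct
Windows of 300 bases, from 250 before to 50 after the start, were searched on both strands, and RefSeq entries were matched for 7 of the 10 members in 8 windows. CAGCTG was found in Chrna1 (92 and 44 bases before the start), Chrng (155 and 132), Chrne (138) and Musk (68), and in 16.3% of all 32851 windows. CCGGAA was found in Chrne only, 76 bases before the start, and in 14.9% of all windows. The general E box CANNTG, which includes CAGCTG, was present in 7 of the 7 matched members and in 72.3% of all windows. A form of the element that interferon regulatory factors bind, written as GAAA, any 2 bases and GAAA again, was found in 0 of the 8 member windows and in 3.44% of all windows. A match says only that these letters are present. In the GENCODE M21 annotation the Chrng gene begins further upstream, so its window lies within the annotated gene, and the annotated starts of Chrne and Musk also lie slightly upstream of the RefSeq ones.

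The libraries held between 13417512 and 16384565 reads on genes. Values are TMM-normalized CPM, that is read counts relative to the library total after scaling by trimmed means of log ratios (TMM), which holds most genes level between libraries. A gene with 3 reads has a value of 0.181 to 0.225. The group comparison took log2(value + 1) into limma for those 11865 genes that reached a value of 1 in 4 or more mice, and fold changes on this scale are understated for low genes. Summed markers of the muscle fiber ran from 103055 to 121965 in flox libraries and from 104083 to 121248 in those of MI4KO mice. Of 8 motor axon markers, Chat, Slc18a3, Nefh and Mnx1 had no read in any mouse and the sum did not exceed 0.748. Schwann cell markers, of the glia that cover the nerve, had sums of 103 to 138 in flox libraries and of 94.7 to 115 in MI4KO libraries. Liver markers reached 118.8 in flox mouse 1 and at most 0.763 in the other mice, and neutrophil markers reached 5.45 in MI4KO mouse 3 and at most 0.975 in the others.

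Irf4, the deleted gene, was low in every library. It stood at 0.686, 1.46, 1.58 and 1.68 in flox mice 1 to 4 and at 0.725, 0.840, 0.266 and 1.03 in MI4KO mice 1 to 4, on 4 to 23 reads. Flox mouse 1 was lower than 3 of the MI4KO mice. The log2 fold change, MI4KO minus flox, was -0.45 with a standard error of 0.20 (limma, unadjusted p = 0.040, Benjamini-Hochberg adjusted p = 1.0), while permuting the mice exactly (two-sided) gave p = 0.114, where a design of this size can reach 0.0286 at the lowest. On recovered reads the log2 fold change was -0.86 in edgeR (unadjusted p = 0.0562) and -0.87 in DESeq2 (unadjusted p = 0.0583). In limma the unadjusted p was 0.0632 with library-size scaling and 0.120 without MI4KO mouse 3.

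Expression of the junction genes did not differ detectably between MI4KO and flox SOL. Of the 9 members that passed the filter, 0 reached the study's limits of a 1.5-fold change with an unadjusted p under 0.05, which 0.219% of all genes tested reached (26 of 11865, with 0.059% of genes higher and 0.16% lower in MI4KO mice). At an unadjusted p under 0.05 alone, limma, edgeR's quasi-likelihood test and DESeq2 each called 0 members, beside 3.36% of all genes in limma. Adjusted p-values under 0.05 were reached by 0 members and by 0 genes in all with each of the 3 tools. The lowest and highest 95% bounds of the 9 fold changes were 0.754 and 1.44, so on this scale a 1.5-fold change lay outside the interval of each of these members. Musk, Dok7 and Rapsn had log2 fold changes above 0 and the other 6 below, with a median of -0.04 against -0.01 for all genes, of which 43.8% were above 0. With library-size scaling 5 members were above 0 and 4 below. Values of the groups overlapped for all 10 members, and 2.07% of all genes had groups that did not overlap. In whole muscle, fewer cells or nuclei of a type and less RNA in each cannot be told apart.

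**Figure D1:**
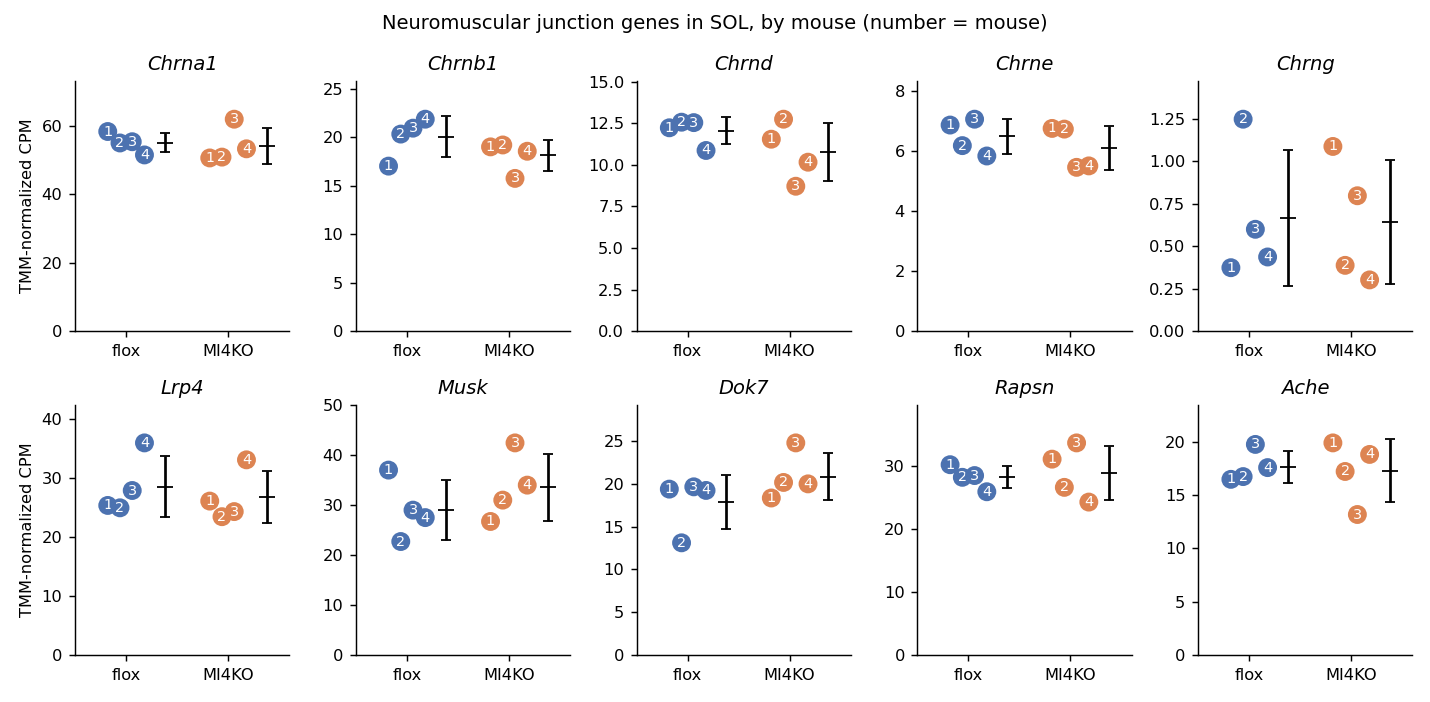
TMM-normalized CPM of the 10 neuromuscular junction genes in SOL, with 1 numbered point per mouse (flox blue, MI4KO orange) and the mean and SD of each group of 4 beside the points; each axis starts at 0. The groups overlap in all 10 panels, and MI4KO mouse 3 is the highest point for Chrna1, Musk, Dok7 and Rapsn and the lowest for Chrnb1, Chrnd, Chrne and Ache.

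The acetylcholine receptor is built of alpha, beta and delta subunits together with the gamma subunit in its fetal form or the epsilon subunit in its adult form. Chrna1 (chr 2, 73563215 to 73580338, minus strand, GENCODE M21 on GRCm38, as for all positions below) encodes the alpha subunit, which carries most of the acetylcholine binding site. It read 58.4, 55.0, 55.4 and 51.5 in flox mice 1 to 4 and 50.6, 50.9, 62.0 and 53.3 in MI4KO mice 1 to 4, on 698 to 936 reads. MI4KO mouse 3 was the highest of the 8 and the other MI4KO mice lay low in or just under the flox range. Group means were 55.1 ± 2.80 and 54.2 ± 5.31 (SD, n = 4 each), a log2 fold change of -0.03 (95% interval -0.20 to 0.15).

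Chrnb1 (chr 11, 69784036 to 69795943, minus strand), the beta subunit, read 17.0, 20.3, 20.9 and 21.9 in flox mice and 19.0, 19.2, 15.8 and 18.6 in MI4KO mice. Flox mouse 1, the lowest of its group, lay below 3 of the 4 MI4KO mice. Means were 20.0 ± 2.11 in flox and 18.1 ± 1.61 in MI4KO mice, with a log2 fold change of -0.14 (SE 0.10, unadjusted p = 0.200 by limma), which was -0.07 without MI4KO mouse 3 and -0.21 without flox mouse 1. Chrnd (chr 1, 87190607 to 87200070, plus strand), the delta subunit, read 12.2, 12.6, 12.5 and 10.9 in flox mice and 11.5, 12.7, 8.71 and 10.2 in MI4KO mice. MI4KO mice 3 and 4 were the lowest of the 8, and MI4KO mouse 2 was the highest. Its log2 fold change was -0.16 (SE 0.12, unadjusted p = 0.200 by limma), the lowest among the members, and it was -0.07 without MI4KO mouse 3.

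Chrne (chr 11, 70614883 to 70619216, minus strand) encodes the epsilon subunit of the adult receptor, which is made almost entirely under the synapse. It read 6.86, 6.17, 7.05 and 5.83 in flox mice and 6.75, 6.72, 5.45 and 5.50 in MI4KO mice, on 80 to 110 reads. Each group held high and low mice, and the spread over the 8 values (10.2% of the mean) was no wider than the 10.4% that counting these reads gives alone. Its log2 fold change was -0.08 (95% interval -0.32 to 0.17). The gene overlaps 4930544D05Rik on the opposite strand, and whether counting used the strand of the stranded libraries is not given in the sources used here.

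Chrng (chr 1, 87204657 to 87212694, plus strand), next to Chrnd on the same strand, encodes the gamma subunit, which is replaced by epsilon around birth and returns after denervation. It read 0.374, 1.25, 0.600 and 0.437 in flox mice and 1.09, 0.388, 0.798 and 0.302 in MI4KO mice, on 5 to 18 reads. High and low mice occurred in both groups, and means were 0.665 ± 0.401 and 0.644 ± 0.367 (SD, n = 4 each). It was the 1 member under the filter, exact two-sided permutation gave p = 0.971, and edgeR without a filter gave a log2 fold change of -0.05 (unadjusted p = 0.922). Per kilobase of transcript, the ratio of Chrng to Chrne was 0.0317 to 0.118 in flox mice and 0.0319 to 0.0938 in MI4KO mice, with a median of 0.0465 over the 8 mice. The transcripts were thus mostly those of the adult form in both groups, and with so few Chrng reads only a large difference in this ratio could have been seen.

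Lrp4 (chr 2, 91457511 to 91513779, plus strand) encodes the agrin receptor. It read 25.4, 25.0, 27.9 and 36.0 in flox mice and 26.1, 23.5, 24.3 and 33.1 in MI4KO mice. Mouse 4 of each group stood above the other mice, and those other 6 lay between 23.5 and 27.9. The log2 fold change was -0.09 (95% interval -0.37 to 0.19), and it was 0.02 without flox mouse 4.

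Musk (chr 4, 58285960 to 58374303, plus strand) encodes the muscle-specific kinase at the centre of receptor clustering. It read 37.0, 22.7, 29.0 and 27.5 in flox mice and 26.7, 31.0, 42.4 and 34.0 in MI4KO mice, on 327 to 638 reads. MI4KO mouse 3 was the highest and flox mouse 2 the lowest, but flox mouse 1 exceeded 3 of the 4 MI4KO mice. Means were 29.0 ± 5.94 in flox and 33.5 ± 6.64 in MI4KO mice, with a log2 fold change of 0.20 (SE 0.15, 95% interval -0.13 to 0.53, unadjusted p = 0.205 by limma). It was 0.09 without MI4KO mouse 3, 0.10 without flox mouse 2 and 0.32 without flox mouse 1, where the unadjusted p was 0.0464. Leaving out flox mouse 1 and MI4KO mouse 3 together gave 0.21.

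Dok7 (chr 5, 35056766 to 35087839, plus strand) encodes the adaptor that activates MuSK from inside the fiber. It read 19.4, 13.1, 19.7 and 19.2 in flox mice and 18.4, 20.2, 24.8 and 20.0 in MI4KO mice, on 189 to 373 reads. Apart from flox mouse 2 at the low end and MI4KO mouse 3 at the high end, the other 6 mice lay between 18.4 and 20.2. Means were 17.8 ± 3.16 and 20.8 ± 2.77, and the log2 fold change of 0.22 (SE 0.13, 95% interval -0.07 to 0.51, unadjusted p = 0.121 by limma) was the highest among the members. It was 0.14 without MI4KO mouse 3 and 0.09 without flox mouse 2, and scaling by library size instead of TMM brought its unadjusted p to 0.0394.

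Rapsn (chr 2, 91035620 to 91045729, plus strand) encodes rapsyn, the scaffold that ties receptors to the cytoskeleton. It read 30.2, 28.2, 28.5 and 25.9 in flox mice and 31.1, 26.6, 33.7 and 24.3 in MI4KO mice. MI4KO values lay both above and below the flox range, and the SD was 4.26 in MI4KO against 1.77 in flox mice. The log2 fold change was 0.03 (95% interval -0.20 to 0.25). Rapsn overlaps Gm13778 on the opposite strand.

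Ache (chr 5, 137287519 to 137294466, plus strand) encodes acetylcholinesterase, the enzyme that ends each signal by splitting acetylcholine in the synaptic cleft. It read 16.5, 16.7, 19.7 and 17.6 in flox mice and 19.9, 17.2, 13.2 and 18.8 in MI4KO mice. The highest and the lowest value both came from MI4KO mice. The log2 fold change was -0.04 (95% interval -0.30 to 0.22) and 0.08 without MI4KO mouse 3. Ache overlaps the opposite-strand transcript Gm42456 and holds Mir8116. Colq, the collagen tail that anchors the enzyme in the cleft, stood at 30.7 ± 1.27 in flox and 29.9 ± 3.26 in MI4KO mice, with -0.04 as its log2 fold change.

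**Figure D2:**
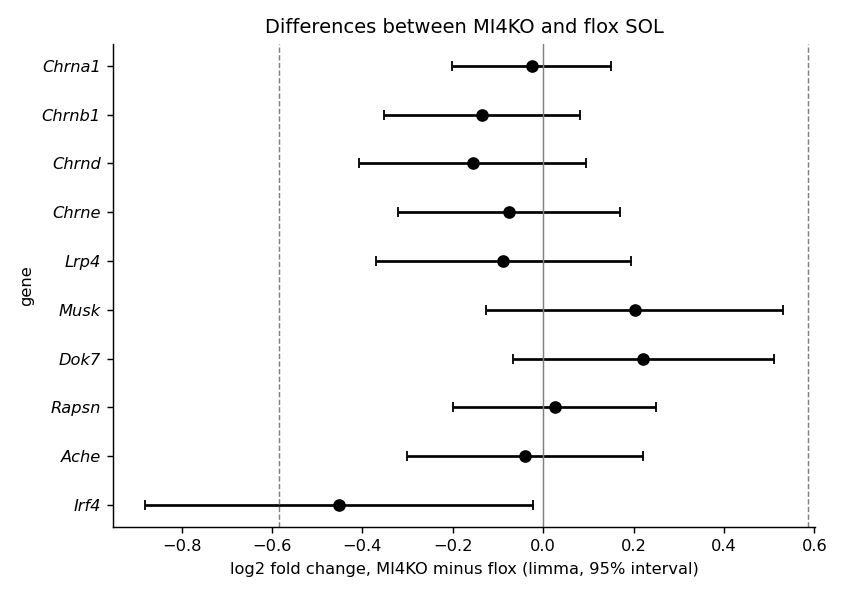
Log2 fold change, MI4KO minus flox, of the 9 members that passed the filter and of Irf4, as limma estimates (points) with 95% intervals (lines); dashed lines mark a 1.5-fold change in either direction. All 9 member intervals include 0 and lie inside the dashed lines, while the interval of Irf4 lies below 0 and extends past the lower line.

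Because long transcripts gather more reads, levels of different members were compared as TMM-normalized CPM per kilobase of the longest coding transcript, over all 8 mice. Rapsn had the highest level at 17.8 ± 1.89 (SD, n = 8), and its lowest mouse lay above the highest of the next gene, Chrna1, at 12.5 ± 0.903. Musk at 9.14 ± 1.84, Chrnb1 at 8.85 ± 0.933, Ache at 7.98 ± 0.991 and Dok7 at 6.96 ± 1.14 followed. Chrna1 exceeded Musk in every mouse although their ranges overlapped, and its lowest value, 11.5, lay above every value of Chrnb1, Ache and Dok7. Musk exceeded Dok7 in every mouse. Neighbours among Musk, Chrnb1, Ache and Dok7 overlapped in their values, and the order of each such pair differed between mice. Chrne at 3.89 ± 0.395, Chrnd at 3.87 ± 0.483 and Lrp4 at 3.49 ± 0.570 overlapped with each other and lay below every value of Dok7. Chrng was last at 0.235 ± 0.128, under every value of Lrp4. Lengths of all exons joined, instead of the longest transcript, gave the same order, but the lowest value of Dok7 was then 3.34 and overlapped Chrne, Chrnd and Lrp4. The receptor subunits thus did not stand at equal transcript levels, and the lower delta and epsilon values occurred in both groups.

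**Figure D3:**
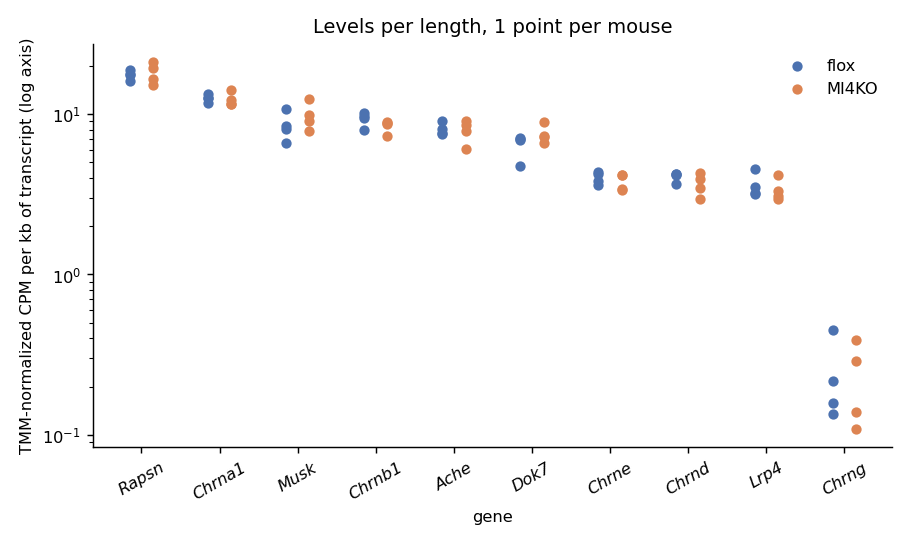
Level of each member per kilobase of its longest coding transcript (TMM-normalized CPM per kb, log axis), with 1 point per mouse, flox blue and MI4KO orange, in descending order of the mean. Rapsn lies highest at a mean of 17.8, Chrne, Chrnd and Lrp4 lie together between 3.49 and 3.89, and Chrng lies far below at 0.235.

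The members did not move as a block among the mice. MI4KO mouse 3 held the highest value of Chrna1, Musk, Dok7 and Rapsn and the lowest value of Chrnb1, Chrnd, Chrne and Ache, so that 8 of the 10 members had an extreme in this mouse. Among all genes tested, 30.9% had their highest and 13.3% their lowest value in MI4KO mouse 3, 44.2% together. Each other mouse held an extreme of 15.9% to 31.9% of genes, so this library stood apart over all genes as well. Against the median of the other 7 mice, Musk was 1.46 times, Dok7 1.28 times, Rapsn 1.19 times and Chrna1 1.16 times as high in it. In the same library Chrnd was at 0.713, Ache at 0.750, Chrne at 0.811 and Chrnb1 at 0.821 of that median, while Chrng and Lrp4 lay inside the range of the others. Musk, Dok7, Rapsn and the alpha subunit were thus high in the library where the beta, delta and epsilon subunits were low.

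Further junction genes, singled out after their values were seen, also lay outside the other mice in this library. Nes, which encodes the intermediate filament protein nestin that adult fibers keep beneath the synapse, was at 39.4 against 74.6 to 100.2 in the others. Over all genes tested, 13.3% had their lowest and 30.9% their highest value in this library. Of 10 genes listed for synaptic transcription, 5 were lowest and 1 was highest there. Of the 11 genes listed for the denervation response, 6 had their lowest value in the same library, 1 (Dach2) its highest and 4 neither. Among the lowest, Ncam1, an adhesion molecule, was at 19.3 against 27.1 to 40.1, Myh3, the embryonic myosin heavy chain, at 9.31 against 23.4 to 52.2, and Ankrd1, a stress-induced ankyrin repeat protein, at 3.79 against 16.2 to 21.3. Schwann cell markers had their lowest sum there, and 5 of 5 neutrophil markers in the table were highest there. Their part in the member values was not tested. Without this mouse, log2 fold changes of the members ran from -0.09 for Chrna1 to 0.14 for Dok7, and the signs of Rapsn (-0.05) and Ache (0.08) turned.

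**Figure D4:**
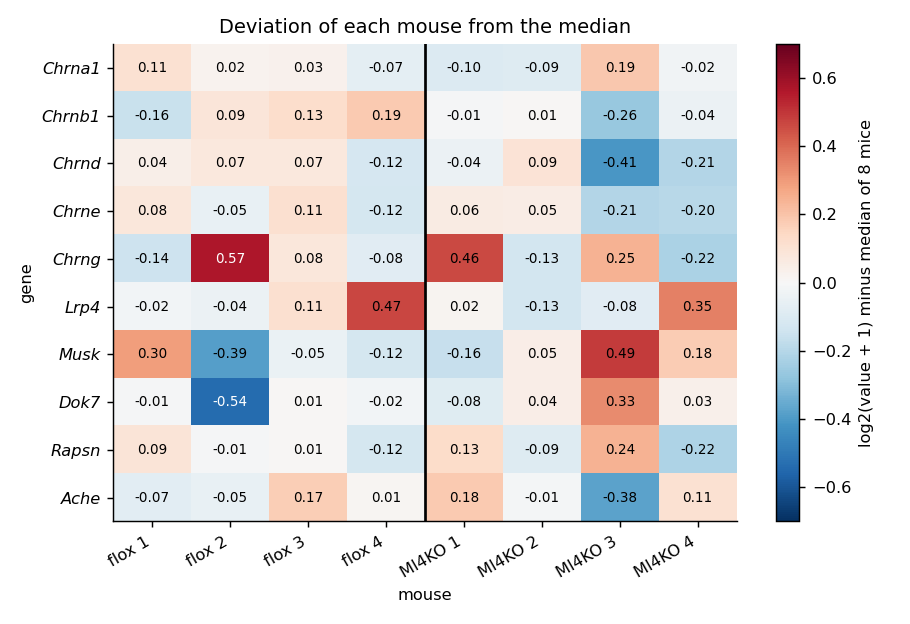
Deviation of each mouse from the median of the 8 mice on log2(value + 1), for the 10 members (rows) in 4 flox and 4 MI4KO mice (columns), with the value printed in each cell and red above, blue below the median. The column of MI4KO mouse 3 holds deviations from -0.41 for Chrnd to 0.49 for Musk, and flox mouse 2 is low for Musk (-0.39) and Dok7 (-0.54).

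Spread between mice differed among the members. As the coefficient of variation over the 8 mice, it was 20.2% for Musk, 16.4% for Dok7 and 16.3% for Lrp4, where counting alone gives 4.63%, 5.90% and 4.95%. Chrna1 varied least, at 7.25%, where counting alone gives 3.52%. Chrng varied most, at 54.3%, and counting its few reads alone would already give 32.4%. On log2(value + 1) the median SD was 0.175 for the members tested and 0.150 for all genes tested. The genes whose pattern over the 8 mice was most like that of Musk, the member with the largest SD among those tested, were Sf3b4 (Pearson r = 0.982), Ogfod3 (0.970) and Mtcp1 (0.955). These were the highest of the correlations with all other genes tested, over 8 points that share their library scale, and they are given as a description.

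The pathway around the members was followed in 77 further genes in 7 lists, of which 57 passed the filter. The study's limits were reached by 0 of the 57. At an unadjusted p under 0.05 alone, 5 of the 57 (8.77%, against 3.36% of all genes) fell, 0 rose, and none had an adjusted p under 0.05 (limma, smallest adjusted p = 1.0). Both the number and the direction depended on the scaling and the test. With library-size scaling in limma, Hdac9 was lower and Crk, Dtna and Gabpa were higher, and edgeR called Hdac9 and Lamb2 lower and Gabpa higher. DESeq2 called Hdac9 and Lamb2, both lower. Of all genes at an unadjusted p under 0.05, 12.3% were higher in MI4KO mice in limma on the deposited values, 34.4% with median-of-ratios scaling, 35.5% in edgeR and 66.6% with library-size scaling. The median log2 fold change over the 57 was -0.04 against -0.01 for all genes.

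Among 12 clustering partners, which act with agrin and MuSK, Agrn, Macf1 and Nes passed the unadjusted limit and the list had a median of -0.02. Agrn encodes agrin, which nerve and muscle both make in different splice forms that gene values do not separate. It read 12.6, 14.2, 16.1 and 16.1 in flox mice and 8.63, 13.6, 12.5 and 13.0 in MI4KO mice, and its log2 fold change was -0.30 (SE 0.14, unadjusted p = 0.0481 by limma). MI4KO mouse 1 was far below the rest, and without it the log2 fold change was -0.16 with an unadjusted p of 0.159. In that mouse the summed endothelial markers were also lowest. Their sums ran from 252 to 351 in MI4KO libraries and from 328 to 391 in flox libraries, with 6 of 6 markers detected and Cdh5 and Kdr lower at an unadjusted p under 0.05. Their part in the Agrn value was not tested. Macf1, a linker of microtubules to rapsyn, fell by 0.20 on the log2 scale (SE 0.09, unadjusted p = 0.0496 by limma). In edgeR the unadjusted p was 0.0744 for Agrn, 0.106 for Macf1 and 0.119 for Nes. Nes fell by 0.44 on the log2 scale (SE 0.20, unadjusted p = 0.0450 by limma), and was -0.18 with an unadjusted p of 0.0629 without MI4KO mouse 3. Dnaja3, a MuSK-binding chaperone and the most abundant partner, stood between 148.0 and 153.9 in all mice but MI4KO mouse 3, at 165.7.

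In the synaptic basal lamina, the matrix between nerve ending and fiber, 9 of 10 tested genes had log2 fold changes below 0 and 1 above. The list median was -0.11 (7 of 10 below 0 and -0.07 with library-size scaling), and 1 gene passed the unadjusted limit. Of all genes tested, 43.8% lay above 0, with a median of -0.01 (0.03 with library-size scaling). Lamb2, the laminin beta chain concentrated at the synapse and also present in vessel walls, read 168, 170, 185 and 181 in flox mice and 146, 152, 157 and 167 in MI4KO mice. Every MI4KO mouse lay below every flox mouse, by little between MI4KO mouse 4 and flox mouse 1. The log2 fold change was -0.18 (SE 0.07, unadjusted p = 0.0233, adjusted p = 1.0 by limma), and the unadjusted p was 0.0670 without MI4KO mouse 1, 0.0543 without MI4KO mouse 2, 0.0701 without flox mouse 3, 0.0654 without flox mouse 4, 0.0679 with library-size scaling and 0.0518 with the range of mouse numbers as a term. The endothelial sums given above overlapped between the groups, and their part in this list was not tested.

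The denervation response is the transcriptional program of a fiber that has lost its nerve. Of 10 tested genes listed for it, 3 lay above 0 and 7 below, beside 43.8% of all genes tested above 0. The list median was -0.08 (6 of 10 below 0 and -0.04 with library-size scaling). The list mixes genes that rise and genes that fall after loss of the nerve, so these counts give no direction for the program. Hdac9, a histone deacetylase that represses transcription, read 13.2, 14.6, 14.9 and 13.8 in flox mice and 12.2, 10.8, 8.71 and 12.4 in MI4KO mice. Every MI4KO mouse lay below every flox mouse. Its log2 fold change was -0.34 (SE 0.11, unadjusted p = 0.0099, adjusted p = 1.0 by limma), and the unadjusted p stayed under 0.05 with each mouse left out in turn and in edgeR (0.0233) and DESeq2 (0.0223). Myh3 lay furthest below 0 in the list, with a log2 fold change of -0.70 (SE 0.37, unadjusted p = 0.083 by limma), which was -0.25 without MI4KO mouse 3 and -1.02 without MI4KO mouse 1. Myog, the myogenic factor that drives receptor genes after denervation, had a log2 fold change of -0.04 (SE 0.15).

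The remaining lists held 0 genes under the unadjusted limit in limma on the deposited values. Of the postsynaptic cytoskeleton, 9 of 10 genes were tested, with a median of -0.03 and Dtna (dystrobrevin) at 0.09 having the smallest p (0.259 by limma, and 0.0487 with library-size scaling), while Plec (plectin) was the most abundant. Of synaptic transcription, 8 of 10 were tested, with a median of -0.01. Gabpa, the ETS factor that binds the N box, had a log2 fold change of 0.14 (SE 0.08, unadjusted p = 0.118 by limma). Its unadjusted p was 0.0452 in edgeR, 0.0246 with library-size scaling and 0.0421 with median-of-ratios scaling. Prkar1a, a regulatory subunit of protein kinase A, was at 0.00. Of the 5 genes of protein glycosylation that congenital myasthenia links to the receptor, 5 were tested, with a median of -0.01. Among these Dpagt1 read 15.8, 12.5, 12.5 and 12.8 in flox mice and 12.3, 11.9, 11.5 and 11.9 in MI4KO mice. Its groups did not overlap, although flox mouse 1 alone stood well above the rest (log2 fold change -0.15, unadjusted p = 0.145 by limma). Of 17 other cholinergic genes, 3 were tested: Chrna2, Chrna10 and Bche, with a median of 0.04. Chrna2 ran from 21.0 to 42.2, with both ends in MI4KO mice. The neuronal subunit genes Chrna3, Chrna6 and Chrnb3 had no read in any mouse.

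**Figure D5:**
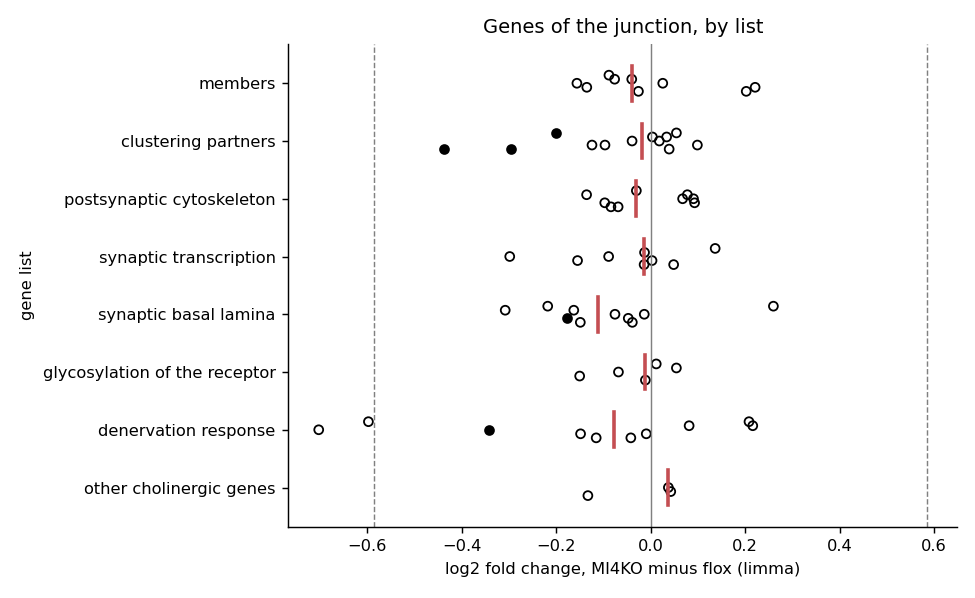
Log2 fold change, MI4KO minus flox, of the tested members and of the tested genes in the 7 pathway lists (1 circle per gene, filled where the unadjusted p is under 0.05), with a red bar at each list's median and dashed lines at a 1.5-fold change. The 5 filled circles all lie below 0, and the 2 genes past the lower dashed line, Myh3 and Ankrd1, are not filled and were at -0.25 and -0.13 without MI4KO mouse 3.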

How the data were processed

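SOL RNA of 4 flox and 4 MI4KO mice was analysed. The authors made Kapa stranded libraries from enriched poly(A) mRNA and sequenced 50 bases from 1 end. Bowtie2 aligned the reads to the UCSC transcripts, RSEM gave gene estimates and TMM scaled the libraries. The submitters' processing notes name mm10, bcl2fastq 2.17, Bowtie2 2.1.0 and RSEM 1.2.15. What the authors deposited is a signal per gene and mouse in TMM-normalized CPM. The authors' fold changes, p-values and FDR in the same table were not used. Dividing each value by its mouse's smallest step gave whole reads for 100% of values (tolerance 0.05), and intervals from reads cover counting error only. No pair of mice agreed within sampling noise.

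limma 3.58.1 (R 4.3.3, eBayes with trend) was run on log2(value + 1). Exact two-sided permutation tests for single genes went through all splits of the mice (Python 3.11.15, numpy 2.4.6). Calls needed a 1.5-fold change and an unadjusted p under 0.05, and p-values were adjusted by Benjamini-Hochberg over all 11865 genes. edgeR 4.0.16 and DESeq2 1.42.0 on the recovered reads were alternatives. The limma fit was tested on simulated counts, and the edgeR and DESeq2 fits were not. Members and lists were chosen with earlier results of these data known. Named genes were all members, Irf4, the most abundant gene and the gene with the smallest p of each list, and the 3 genes most like the most variable member. Agrn, Macf1, Colq, Ncam1, Ankrd1, Myog, Chrna10, Bche, Cdh5, Kdr, Pecam1, Esam, Crk and Dach2 were named after their values were seen. Results of 1 list gene, counted in the totals, are not reported here. Positions are from GENCODE M21 and promoters from RefSeq.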

Additional observations from a re-analysis of the deposited data

Results flagged for a closer look

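Values were examined in 74 sets of 4 mice for a single mouse far from the other 3 of its group, with the gap to the nearest mouse set against the whole range and compared with Dixon's 95% critical value, and 7 sets passed. Chance passes about 1 set in 20 where sets are chosen without sight of their values. Agrn, Macf1, Colq, Ncam1 and Ankrd1 were included after their values were seen, so that rate does not hold for them. Of the members, Dok7 passed, at 13.1 in flox mouse 2 against 19.2 to 19.7 in the other flox mice. Dnaja3 passed at 165.7 in MI4KO mouse 3, and Ankrd1 at 3.79 in the same mouse. Dpagt1 passed at 15.8 in flox mouse 1. Summed liver markers passed at 118.8 in flox mouse 1, summed endothelial markers at 252.1 in MI4KO mouse 1 and summed neutrophil markers at 5.45 in MI4KO mouse 3. Of these 7 values, 3 came from MI4KO mouse 3, and causes were not tested.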

How the results depend on the processing

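Over 19 alternatives, 0 members reached the fold and p limits in any, and unadjusted p-values under 0.05 were met only by Musk without flox mouse 1 and by Dok7 with library-size scaling. The number of all genes past the limits, 26, was 51 with DESeq2, 65 with edgeR, 307 with edgeR without a filter (added after seeing the data), 41 with flox mouse 1 and MI4KO mouse 3 both left out, 71 and 41 with pseudocounts of 0.1 and 0.5, and 19 to 58 with each mouse left out in turn, highest without MI4KO mouse 4. Genes with an adjusted p under 0.05 numbered 1 with both mice left out, and 0 to 1 with single mice left out (1 without MI4KO mouse 2). List genes past the limits numbered 2, Myh3 (-0.88) and Ankrd1 (-0.72), with a covariate for the range of the mouse numbers, and 0 to 1 with single mice left out (Myh3 without MI4KO mouse 1). Irf4 had log2 fold changes of -0.88 and -0.61 under pseudocounts of 0.1 and 0.5, past the limits, and -0.60 to -0.31 with single mice left out, past them without flox mouse 1. Its unadjusted p ran from 0.0081 to 0.120 over all alternatives and was 0.05 or more in 5 of 8 fits with a mouse left out (flox mice 2, 3 and 4, MI4KO mice 1 and 3) and in 6 of the other 11 alternatives.

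Small differences changed sign. Chrna1 was at 0.018 and Ache at 0.0027 with library-size scaling, Rapsn at -0.017 and Ache at 0.047 with both mice left out, Colq at 0.0042 with library-size scaling, Ncam1 at 0.085 with both mice left out, and Prkar1a at -0.0070 with the covariate. Gfpt1 was at 0.0078 with DESeq2, 0.0056 with edgeR, 0.012 without its filter, 0.015 with both mice left out, 0.032 with library-size and 0.0087 with median-of-ratios scaling. Of the genes past the limits, 26.9% were higher in MI4KO mice in the reported fit, 36.8% with library-size scaling, 32.3% with edgeR, 37.3% with DESeq2 and 14.6% with both mice left out. With single mice left out, ranges were -0.21 to -0.073 for Chrnb1, -0.23 to -0.067 for Chrnd, -0.12 to -0.032 for Chrne, 0.085 to 0.32 for Musk, 0.088 to 0.28 for Dok7, -0.77 to -0.13 for Ankrd1, -0.091 to 0.0045 for Chrna1, -0.19 to 0.024 for Lrp4, -0.049 to 0.10 for Rapsn, -0.11 to 0.077 for Ache, -0.0012 to 0.050 for Dnaja3, -0.16 to 0.014 for Plec, -0.038 to 0.042 for Prkar1a, -0.065 to 0.026 for Gfpt1, -0.28 to 0.044 for Chrna2, -0.10 to 0.013 for Colq, -0.24 to 0.10 for Ncam1 and -1.02 to -0.25 for Myh3. Causes were not tested. No paired analysis was possible because the mouse numbers of the groups are not shared. With 5 to 18 reads, Chrng allows no fine comparison, and the same holds for Irf4.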
